A study of Homo sapiens and Mus musculus with 12 samples.

Results

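A group of 10 genes with large differences between KO and WT natural killer (NK) cells was followed through the libraries of splenic NK cells with and without the histone methyltransferase Ehmt2. They are Rundc3a, Kcnc1, Kcnj8, Slc27a6, Akr1c12, Ces2c, BC049715, Fntb, Lcn4 and Xkr6, 10 of the 22021 genes in the mouse count table. The genes were chosen by the difference between KO and WT libraries itself, as genes whose rise exceeds that of genes of NK identity. Their KO and WT levels are therefore given as a description, with no test of that difference.

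Ehmt2, also called G9a, places methyl groups on lysine 9 of histone H3, a mark known for keeping genes silent in cells that do not use them. The 10 genes belong to unrelated families, among them potassium channels of nerve and vessel, enzymes of liver and gut that handle fatty acids, esters and ketones, a lipocalin of the nose, and an enzyme that attaches a lipid anchor to proteins in cells of nearly every kind. NK cells are cytotoxic lymphocytes recognized by receptors such as Ncr1 and Klrb1c and by the killing machinery of perforin and granzymes.

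The mouse libraries came from CD3-NK1.1+ cells sorted from the spleens of mice on the C57BL/6J background aged 8 to 12 weeks, with 3 libraries per genotype. WT mice carried Ehmt2 flox/flox alleles without Cre, and KO mice carried Ehmt2 flox/flox together with Ncr1 iCre, a recombinase driven from the gene of an NK receptor. The sample titles name an EHMT2 knockout, whereas a genotype label of the KO samples reads Ezh2-KO. The human libraries came from NK92MI, an established NK lymphoma line that makes its own interleukin-2, cultured with the EHMT2 inhibitor BIX-01294 at 0.25 uM for 5 days or with the solvent DMSO, 3 libraries each. The labels do not tie libraries to single animals or cultures, so p-values measure the spread between these libraries.

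Ehmt2 reads were lower in every KO library than in every WT library. KO libraries held 171, 143 and 137 CPM (counts scaled to library size) and WT libraries 275, 284 and 285 CPM, a log2 fold change of -0.91 (SE 0.10, adjusted p = 0.0162, edgeR's quasi-likelihood test). Counts per gene do not separate the floxed exons from the rest of the transcript. Ezh2 held 35.0, 39.5 and 38.4 CPM in KO and 41.6, 44.7 and 45.8 CPM in WT libraries (log2 fold change -0.23, SE 0.09, adjusted p = 0.116). Library totals lay between 25891680 counts, in WT replicate 2, and 37438868. The 12 pan-NK genes, among them Ncr1, Klrb1c, Klrk1, Prf1 and Nkg7, took 0.435%, 0.736% and 0.449% of the counts in WT libraries and 0.793%, 0.955% and 0.977% in KO libraries, so that WT replicate 2 stood apart from the other WT libraries and closer to the KO libraries. Markers of several other cells were lower in KO than in WT libraries. Over 7 genes of macrophages and monocytes the sum was 2352 to 5719 CPM in WT and 1294 to 2287 CPM in KO libraries, with 4 of 7 called lower. Over 6 erythroid genes it was 197 to 321 against 91.7 to 122 CPM, with 6 of 6 called lower, and over 7 pancreatic acinar genes 202 to 1176 against 15.4 to 20.7 CPM, with 6 of the 7 called lower. For 6 B cell genes it was 355 to 1077 against 29.3 to 321 CPM, with 0 called by edgeR or DESeq2 and 5 lower at an unadjusted p under 0.05 by edgeR. For 6 neutrophil genes it was 61.8 to 643 against 1.78 to 70.2 CPM, with 2 called lower, and for 5 T cell genes 128 to 205 against 85.4 to 169 CPM, with 1 called higher by edgeR and DESeq2 and 1, Cd4, called lower by DESeq2 alone. The part of these markers in the levels described next was not tested, and in bulk libraries fewer cells of a type and less RNA per cell cannot be told apart.

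Every KO library lay above every WT library for all 10 genes, which were chosen for large differences between the groups. Of the 13189 genes with enough counts to be tested, 19.1% showed that separation, and 2.82% were called higher in KO (the threshold being an adjusted p of 0.05 with a log2 difference above 0.5). All 10 genes passed the filter on low counts and met the call, which follows from their selection. Their log2 fold changes ran from 1.07 to 3.27 with a median of 2.61, against a median of 0.01 over all genes tested and a range of 0.42 to 0.87 over the pan-NK genes. The lowest KO library exceeded the highest WT library by 1.85-fold to 5.85-fold. The set is not a complete one: 167 genes had a log2 fold change at least as large as that of Fntb, the lowest of the 10, and 294 exceeded the highest pan-NK gene. Of the 167, 150 had every KO library above every WT library. The next lower value after Fntb, at 1.07, was that of Ccl21a, a lymph node chemokine, also at 1.07, and it marks no border of the set.

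**Figure D1:**
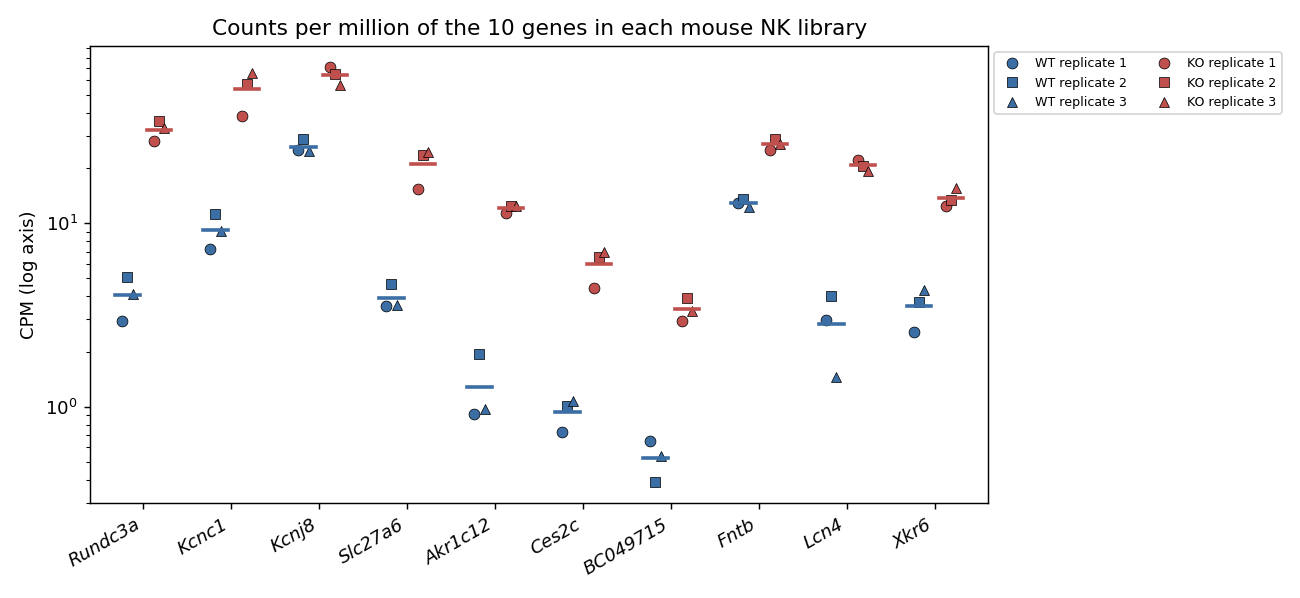
CPM (log axis) of the 10 genes, with each point 1 library, the marker shape giving the replicate number and the horizontal bars the mean of 3 libraries. The groups do not overlap for any gene, and the distance between them is smallest for Fntb (12.2 to 13.5 CPM in WT, 25.1 to 29.0 CPM in KO).

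The 10 genes were proposed as ectopic in KO NK cells, but none was silent in the WT libraries. Those libraries also held reads of other cells, and which cells gave the counts of the 10 genes was not tested. WT libraries held between 10 counts, for BC049715 in replicate 2, and 931 counts, for Kcnj8 in replicate 1, and KO libraries between 108 and 2623. Per kilobase of annotated exons, WT levels were highest for Kcnj8, at 10.3 CPM per kb, followed by Lcn4 at 3.64, Fntb at 3.23, Slc27a6 at 1.58, Rundc3a at 1.38 and Akr1c12 at 1.01 CPM per kb, and lowest for Kcnc1 at 0.972, Xkr6 at 0.489, Ces2c at 0.408 and BC049715 at 0.0811 CPM per kb. In KO libraries the order on the same scale began with Lcn4 at 26.7 and Kcnj8 at 25.3 CPM per kb, went on with Rundc3a at 11.01, Akr1c12 at 9.56, Slc27a6 at 8.48, Fntb at 6.78 and Kcnc1 at 5.70, and ended with Ces2c at 2.61, Xkr6 at 1.90 and BC049715 at 0.526 CPM per kb. Fntb thus moved down this order and Rundc3a up.

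Rundc3a, Kcnc1 and Kcnj8 are known from excitable cells. Rundc3a (chr11:102393403-102402555, plus strand, GRCm38) encodes a RUN domain protein of neurons and endocrine cells that binds the small GTPase Rap2. It held 2.94, 5.12 and 4.14 CPM in the WT libraries and 27.9, 36.3 and 32.9 CPM in the KO libraries. The means of 4.07 ± 1.09 and 32.4 ± 4.20 CPM (SD, n = 3 each) stood 8.01-fold apart, a log2 fold change of 3.0 (SE 0.21). WT replicate 2 was the highest of its group and KO replicate 1 the lowest of the other. Kcnc1 (chr7:46396497-46438704, plus strand) encodes Kv3.1, a voltage-gated potassium channel that lets fast-spiking neurons repolarize quickly. Its levels were 7.26, 11.3 and 9.03 CPM in WT and 38.6, 57.4 and 65.6 CPM in KO libraries, 5.88-fold apart (log2 2.56, SE 0.24). Here too WT replicate 2 and KO replicate 1 were the libraries nearest to the other group. Kcnj8 (chr6:142564837-142571614, minus strand) encodes Kir6.1, the pore of a potassium channel gated by ATP in vascular smooth muscle and pericytes. It held 25.1, 28.6 and 24.8 CPM in WT and 71.3, 65.1 and 56.7 CPM in KO libraries, 2.46-fold higher (log2 1.30, SE 0.11). For Kcnj8 the order within the KO group was the reverse of that for Kcnc1, with replicate 1 highest and replicate 3 lowest.

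Among markers of the tissues in which these genes are best known, those of neurons were scarce and those of pericytes and smooth muscle less so. The part of such cells in the reads of these genes was not tested. The 6 neuronal markers summed to 0.776 to 2.83 CPM in WT and 1.65 to 2.21 CPM in KO libraries, with Snap25 at 0 counts in every library. Rbfox3, a nuclear protein of mature neurons, was the 1 called higher, at 0.378, 0.388 and 0.403 CPM in WT and 1.22, 1.02 and 0.932 CPM in KO libraries (log2 fold change 1.44, SE 0.33, adjusted p = 0.0412). The 6 genes of pericytes and smooth muscle summed to 11.7 to 15.9 CPM in WT and 6.88 to 8.65 CPM in KO libraries, opposite in direction to Kcnj8, and edgeR called 0 of the 4 tested, with 2 lower at an unadjusted p under 0.05 and 2 called lower by DESeq2.

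The gene of the 10 with the largest fold was Akr1c12. Akr1c12 (chr13:4268176-4279433, minus strand) encodes an aldo-keto reductase, an enzyme that reduces ketones and aldehydes, steroids among them. Because its neighbour Akr1c13 encodes a near-identical protein, the reading frames are shown to let the degree of resemblance be judged. Over 969 coding bases, without the stop codon, the 2 genes differ at 37 positions and are identical at 96.2%. The first 150 coding bases, from the GENCODE transcripts of GRCm38, differ at 2 positions, given in capitals.
Akr1c12, coding bases 1 to 150: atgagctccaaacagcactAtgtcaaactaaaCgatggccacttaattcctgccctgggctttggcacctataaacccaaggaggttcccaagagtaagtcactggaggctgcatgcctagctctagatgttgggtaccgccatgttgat
Akr1c13, coding bases 1 to 150: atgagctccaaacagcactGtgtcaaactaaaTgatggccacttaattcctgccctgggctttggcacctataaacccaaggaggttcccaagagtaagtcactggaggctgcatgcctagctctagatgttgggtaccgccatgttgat
The stretch of 100 bases with the most differences runs from coding base 303 to 402 and holds 12.
Akr1c12, coding bases 303 to 402: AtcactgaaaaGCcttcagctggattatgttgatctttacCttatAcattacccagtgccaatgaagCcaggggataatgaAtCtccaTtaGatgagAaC
Akr1c13, coding bases 303 to 402: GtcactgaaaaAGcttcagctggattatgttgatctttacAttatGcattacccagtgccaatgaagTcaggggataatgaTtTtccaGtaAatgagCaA
Of all 50-base windows in Akr1c12 transcripts, 28.63% occur unchanged in Akr1c13, so that counts of the pair rest in part on how such reads were assigned, which is not given in the sources used here.

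Akr1c12 held 0.917, 1.94 and 0.967 CPM in WT and 11.3, 12.4 and 12.4 CPM in KO libraries, the largest fold of the 10 at 9.63 (log2 3.27, SE 0.29). WT replicate 2 held about as much as the other WT libraries combined, whereas the KO libraries lay close together. Akr1c13, not one of the 10 and thus open to a test, also rose, from 10.2, 11.2 and 7.98 CPM to 22.7, 22.4 and 24.4 CPM (log2 fold change 1.24, SE 0.14, adjusted p = 0.0162, edgeR), a call lost with scaling to the pan-NK genes (log2 fold change 0.49, adjusted p = 0.123) and Akr1c13 shares the sequence windows given above with Akr1c12. Per kilobase of exons, mean levels were 6.83 CPM per kb for Akr1c13 and 1.01 for Akr1c12 in WT and 16.1 and 9.56 CPM per kb in KO libraries, so that the ratio between the paralogs was smaller in KO cells. The nearest genes on either side of Akr1c12, Akr1c19 and Akr1c6, had no counts.

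Slc27a6, Ces2c and Fntb, like Akr1c12, encode enzymes or carriers of metabolism. Slc27a6 (chr18:58556257-58612773, plus strand) encodes a fatty acid transport protein best known from heart. It held 3.56, 4.65 and 3.60 CPM in WT and 15.3, 23.5 and 24.4 CPM in KO libraries, 5.37-fold apart (log2 2.42, SE 0.22), with KO replicate 1 well below the other 2 KO libraries. Ces2c (chr8:104847068-104854483, plus strand) encodes a carboxylesterase that cleaves ester bonds in lipids and drugs. Its levels were 0.728, 1.01 and 1.07 CPM in WT and 4.43, 6.55 and 6.99 CPM in KO libraries, 6.39-fold apart (log2 2.68, SE 0.28). Fntb (chr12:76765589-76921412, plus strand) encodes the beta subunit of farnesyltransferase, the enzyme that anchors Ras and nuclear lamins to membranes. It is the one gene of the 10 with a general role in cells, and its levels varied least among the WT libraries, at 12.8, 13.5 and 12.2 CPM in WT and 25.1, 29.0 and 27.0 CPM in KO libraries, 2.10-fold apart (log2 1.07, SE 0.10). Hepatocyte markers summed to no more than 0.107 CPM in WT and 0.218 CPM in KO libraries, with Serpina1a and Fgb at 0 everywhere. Intestinal markers summed to 13.2 to 15.4 CPM in WT and 10.6 to 13.1 CPM in KO libraries, with Fabp2 and Cdx2 at 0.

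The last 3 genes have little known part in blood cells. Lcn4 (chr2:26667674-26671282, minus strand) encodes a lipocalin secreted by glands of the nose and vomeronasal organ. It held 2.97, 4.03 and 1.45 CPM in WT and 22.2, 20.4 and 19.4 CPM in KO libraries, 7.42-fold apart (log2 2.89, SE 0.32). Its WT libraries were the most scattered of the 10 genes, with a coefficient of variation of 46.1%, and its KO libraries among the tightest, at 7.08%. The 6 markers of those glands summed to 0.155 to 0.269 CPM in WT and 0.162 to 0.384 CPM in KO libraries, with Obp1a, Obp1b and Lcn3 at 0. Xkr6 (chr14:63606503-63820809, plus strand) encodes a membrane protein of the family of Xkr8, which exposes phosphatidylserine on dying cells. It held 2.56, 3.72 and 4.35 CPM in WT and 12.5, 13.4 and 15.5 CPM in KO libraries, 3.89-fold apart (log2 1.96, SE 0.22). BC049715 (chr6:136827626-136840662, plus strand), a gene named after a cDNA clone, had the lowest levels, with 0.647, 0.388 and 0.537 CPM in WT and 2.94, 3.91 and 3.34 CPM in KO libraries, 6.37-fold apart (log2 2.67, SE 0.29). The 6 germ cell markers summed to 0.295 to 0.647 CPM in WT and 0.135 to 0.245 CPM in KO libraries, with Tex101, Prm1 and Acrv1 at 0.

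The counts of some of these genes can be shared with others. Of the exon bases of BC049715, 34.1% overlap those of Smco3 and 5.0% those of Wbp11, both on the opposite strand, and whether the counting used strand is not given in the sources used here. Ces2c shares 36.08% of its 50-base windows with other transcripts, chiefly those of the pseudogene Ces2d-ps and the gene model Gm8798. Ces2d-ps held 14, 24 and 18 counts in WT and 18, 38 and 35 in KO libraries, beside 26 to 40 and 163 to 255 counts of Ces2c. Fntb shares 5.27% of its windows with Churc1, which overlaps it on the same strand, Xkr6 3.86% with an antisense model and Kcnc1 0.59% with other transcripts. No window of Rundc3a, Kcnj8, Slc27a6 or Lcn4 occurred elsewhere among the annotated transcripts.

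Against the pan-NK genes the 10 did not move alike. Each level was divided by the percentage of counts in the 12 pan-NK genes of the same library. The mean ratio was then 1.19-fold to 5.80-fold higher in KO than in WT libraries, with a median of 3.43-fold. Higher ratios in KO follow from the choice of genes whose rise exceeds that of NK identity genes, so the values are a description. Akr1c12 kept the largest difference, with 2.11, 2.63 and 2.15 CPM per percent in WT and 14.3, 13 and 12.7 in KO libraries. Rundc3a followed at 4.66-fold and Lcn4 at 4.46-fold, then Ces2c at 3.60-fold, BC049715 at 3.49-fold, Kcnc1 at 3.38-fold and Slc27a6 at 3.06-fold. Xkr6 stood at 2.21-fold, Kcnj8 at 1.42-fold and Fntb at 1.19-fold. The Kcnj8 ratios nearly met, with 57.7, 38.9 and 55.2 in WT and 89.9, 68.1 and 58.1 in KO libraries. For Fntb, with ratios of 29.5, 18.4 and 27.3 in WT and 31.6, 30.3 and 27.7 in KO libraries, the lowest KO library fell below the highest WT library. Averaged over the 10 genes, the log2 level minus the pan-NK mean was -6.45, -6.78 and -6.45 in WT libraries and -4.92, -4.87 and -4.94 in KO libraries, so WT replicate 2, which held the most pan-NK reads among WT libraries, was the WT library in which the 10 genes lay furthest below them.

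**Figure D2:**
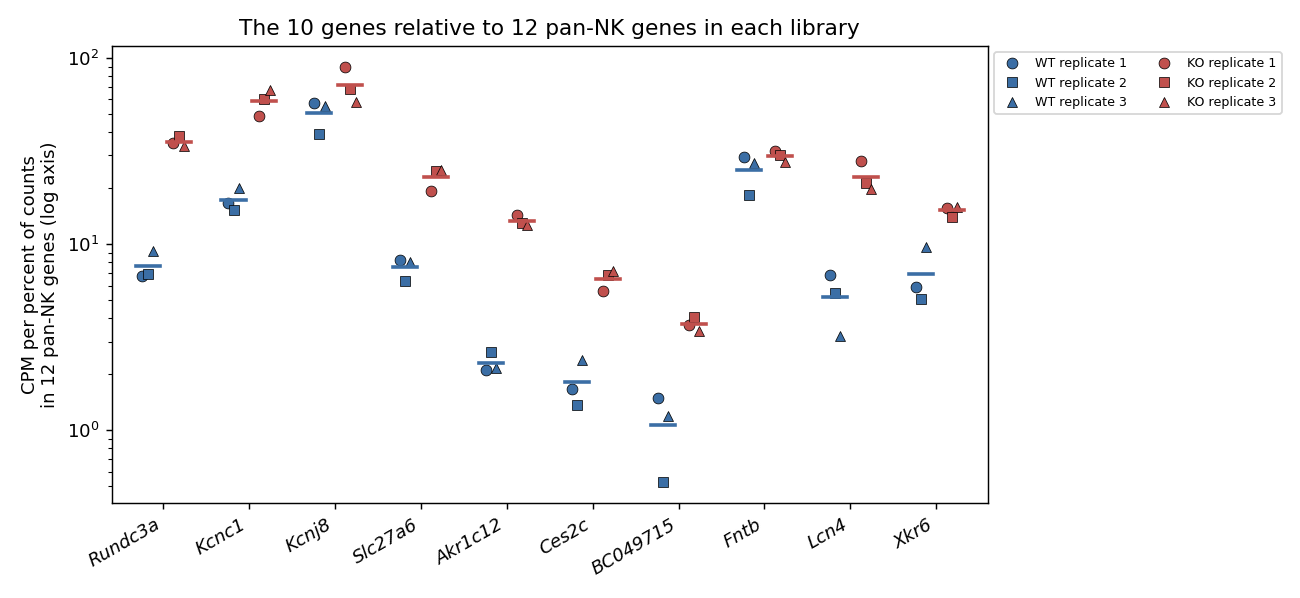
CPM of each gene divided by the percentage of counts in 12 pan-NK genes of the same library (log axis), with 1 point per library and bars at the mean of 3. The groups stand apart for 9 genes, narrowly for Kcnj8, and overlap for Fntb (18.4 to 29.5 in WT, 27.7 to 31.6 in KO). The share of all genes with groups apart on this scale was not computed.

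Within the groups, most but not all of the 10 genes had the same extreme libraries. Replicate 2 was the highest WT library for 7 of 10 genes, all but Ces2c, BC049715 and Xkr6, and replicate 1 the lowest KO library for 8 of 10, all but Kcnj8 and Lcn4, the 2 genes for which it was the highest. The same libraries had the largest and the smallest pan-NK shares within WT and KO, respectively. The highest WT library exceeded the lowest by 1.11-fold to 2.78-fold, and the highest KO library the lowest by 1.10-fold to 1.70-fold.

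Lists of relatives and partners held 154 further genes, of which 73 had enough counts to be tested. Of these, 3 (4.11%) were called higher and 11 (15.1%) lower in KO cells by edgeR, against a background of 2.82% called higher and 6.69% called lower among all genes, and the median log2 fold change was -0.01, against 0.01 over all genes. The counts depended on single libraries, with 0 higher and 0 lower without KO replicate 2, KO replicate 3 or WT replicate 3, 2 higher and 1 lower without WT replicate 1, and 4 higher and 19 lower without WT replicate 2. Over all genes the calls behaved likewise, with 0 in both directions without KO replicate 2 or KO replicate 3, 6 higher and 8 lower without WT replicate 3, and 905 higher and 1835 lower without WT replicate 2. With adjusted p under 0.01, edgeR called 0 family genes in either direction, and at an unadjusted p under 0.05 it counted 9 higher and 24 lower.

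Among 13 RUN domain genes and Rap2 partners of Rundc3a, Rap2a, which encodes a GTPase that Rundc3a binds, was the 1 called higher, from 49.6, 61.7 and 62.9 CPM in WT to 93.4, 101 and 111 CPM in KO libraries (log2 fold change 0.81, SE 0.12, adjusted p = 0.0239). When libraries were scaled to the pan-NK genes, the log2 fold change of Rap2a was 0.04 and the call was lost (adjusted p = 0.889, edgeR). Rufy4, Plekhm2, Plekhm3 and Rubcn, which act in vesicle traffic and autophagy, fell, Rufy4 by 2.29 and the others by 0.50 to 0.51 on the log2 scale (adjusted p = 0.0387, 0.0413, 0.0326 and 0.0389, edgeR). Rubcn was not called with library totals only or without the low-count filter (log2 fold change -0.497 in each). The closest paralog, Rundc3b, which is identical at 59.6% of aligned coding bases, held 10.95, 12.5 and 11.3 CPM in WT and 11.9, 12.8 and 15.0 CPM in KO libraries, with overlapping groups (log2 fold change 0.19, SE 0.13, adjusted p = 0.332).

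Of 11 other voltage-gated potassium channel genes tested, 0 were called higher by edgeR, with 2 at an unadjusted p under 0.05 and 1 called by DESeq2, and 2 fell. These were Kcna2, with 36.4, 9.77 and 19.8 CPM in WT and 6.47, 3.02 and 5.48 CPM in KO libraries (log2 fold change -2.14, SE 0.48, adjusted p = 0.0405), and Kcnd1 (-1.31, SE 0.33, adjusted p = 0.0473).

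The relatives of Kcnj8 had log2 fold changes opposite in sign to its own. All 7 inward rectifier genes and partners tested had negative log2 fold changes (median -1.84), as did 6392 of all 13189 genes. One of them, Kcnj16, was called (39.4, 11.2 and 24.1 CPM in WT, 9.79, 4.36 and 6.80 CPM in KO, log2 fold change -1.84, SE 0.46, adjusted p = 0.0468), 0 were called higher, with 0 at an unadjusted p under 0.05, and DESeq2 called 5 lower. Kcnj10, the most abundant of them by reads, was not called, with 125, 23.7 and 61.0 CPM in WT and 21.9, 11.8 and 22.6 CPM in KO libraries (log2 fold change -1.90, SE 0.55, adjusted p = 0.0580). Kcnj10 and Kcnj16 followed the order of the macrophage markers across WT libraries, in which C1qa held 718, 169 and 452 CPM and Vcam1 940, 176 and 586 CPM, and the part of these cells in the decrease was not tested. Kir6.1 channels need a sulfonylurea receptor to reach the cell surface. Abcc9, which encodes SUR2 and lies next to Kcnj8 on the chromosome, held 0.809, 0.310 and 1.07 CPM in WT and 0.109, 0.108 and 0.247 CPM in KO libraries (log2 fold change -2.24, SE 0.61, adjusted p = 0.0521), and Abcc8, which encodes SUR1, was at 0 in every KO library. Per kilobase of exons, KO libraries thus held on average 25.3 CPM per kb of the pore gene beside 0.0184 CPM per kb of Abcc9, and WT libraries 10.3 beside 0.0873 CPM per kb.

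In metabolism, Acsbg1, an acyl-CoA synthetase of brain and gonads, rose from 15.3, 20.1 and 11.4 CPM to 33.3, 35.9 and 30.8 CPM (log2 fold change 1.10, SE 0.19, adjusted p = 0.0292), and Acsl1, the main long-chain acyl-CoA synthetase of fat and liver, fell by 0.71 (SE 0.10, adjusted p = 0.0239). They were the 2 called among 11 fatty acid genes tested beside Slc27a6, and with pan-NK scaling Acsbg1 was not called (log2 fold change 0.38, adjusted p = 0.202). Of 8 aldo-keto reductases tested, Akr1c13 rose and Akr1b7, a reductase of vas deferens and adrenal gland, fell (-2.52, SE 0.64, adjusted p = 0.0473). Ces2g, of the same gene cluster as Ces2c and identical to it at 85.1% of coding bases, fell from 20.4, 12.4 and 15.4 CPM to 3.10, 3.10 and 4.44 CPM (log2 fold change -2.18, SE 0.24, adjusted p = 0.0162). Within that cluster KO libraries thus held more Ces2c and fewer Ces2g reads, whereas Ces2a, Ces2b, Ces2f and Ces2h had no counts in any library. Ces2g and Akr1b7, like Kcna2, Plekhm2, Plekhm3 and, named below, Xkrx, followed the order of C1qa and Vcam1 across WT libraries. Rufy4, Rubcn, Kcnd1 and Acsl1 did not. The part of macrophages in these decreases was not tested.

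Of 11 genes of protein prenylation tested beside Fntb, 0 were called in either direction by edgeR or by DESeq2, and at an unadjusted p under 0.05 edgeR counted 1 higher and 0 lower and DESeq2 0. Fnta, the alpha subunit that farnesyltransferase shares with the enzyme for geranylgeranyl anchors, held 51.2, 52.2 and 53.1 CPM in WT and 65.6, 56.0 and 57.2 CPM in KO libraries (log2 fold change 0.19, SE 0.09, adjusted p = 0.164), and Pggt1b, the beta subunit of the latter enzyme, 11.7, 9.73 and 13.8 against 11.4, 11.6 and 14.6 CPM (log2 fold change 0.09, SE 0.17, adjusted p = 0.720). Of lipocalins other than Lcn4, 2 could be tested and 0 were called by edgeR, with 1 lower at an unadjusted p under 0.05 and by DESeq2. They were Lcn2, an iron-binding protein of neutrophils, with 17.3, 3.88 and 72.4 CPM in WT and 4.27, 0.108 and 0.274 CPM in KO libraries, and Apod (log2 fold change -0.90, SE 0.59, adjusted p = 0.306). Among 8 XK family and phospholipid scrambling genes tested, Xkrx fell (-1.50, SE 0.34, adjusted p = 0.0406) and 0 were called higher by either tool, with 2 at an unadjusted p under 0.05 in each. Xkr8 held 7.26, 7.14 and 6.18 CPM in WT and 8.89, 9.40 and 10.1 CPM in KO libraries (log2 fold change 0.47, SE 0.14, adjusted p = 0.0632).

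**Figure D3:**
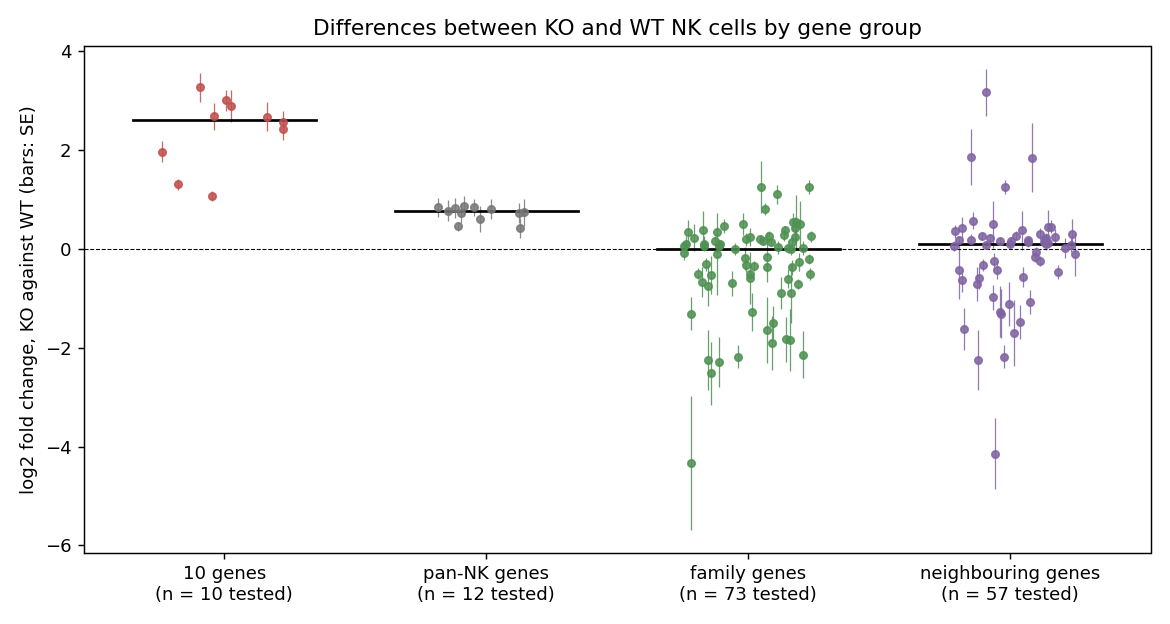
Log2 fold changes between KO and WT NK cells (points, with SE) for the 10 genes, 12 pan-NK genes, 73 tested family genes and 57 tested neighbouring genes, with black lines at the medians. The 10 genes were chosen on this value and have a median of 2.61, whereas the family genes have a median of -0.01 and the neighbours of 0.10.

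The neighbours on the chromosome were compared to see whether whole stretches of DNA rose. The 5 nearest counted genes on either side of each of the 10, the pseudogene Ces2d-ps among them, came to 100 genes, of which 57 could be tested. By edgeR 2 were called higher and 6 lower, beside 2.82% and 6.69% of all genes, and the median log2 fold change was 0.10. Without KO replicate 2, KO replicate 3 or WT replicate 3 the counts were 0 and 0, without WT replicate 1 they were 1 and 1, and without WT replicate 2 they were 4 and 10. DESeq2 called 3 higher and 9 lower, and at an unadjusted p under 0.05 edgeR counted 10 higher and 17 lower. The 2 called higher by edgeR were Akr1c13, 62.6 kb from Akr1c12, and Smco3, which overlaps BC049715. Agpat2, near Lcn4, was called higher by DESeq2 alone (log2 fold change 0.56, adjusted p = 0.0126). Some neighbours, Akr1c13 and Ces2g among them, were also on the family lists. Of the 52 tested that were not, edgeR called 1 higher, Smco3, and 5 lower. Smco3 held only 2, 2 and 4 counts in WT and 32, 26 and 24 counts in KO libraries (log2 fold change 3.16, SE 0.47). It passed the filter on low counts only through the KO libraries, so its call carries no weight of its own, and it was not tested where genes under a mean of 1 CPM were left out. Given the shared exon bases, reads of Smco3 and BC049715 could not be told apart here.

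Several of the nearest genes were not called by edgeR. Wbp11, a splicing factor that overlaps the other end of BC049715, held 142 CPM on average in WT and 150 CPM in KO libraries (log2 fold change 0.08, adjusted p = 0.558), and Churc1, which overlaps Fntb, 3.70 and 3.73 CPM (0.01, adjusted p = 0.975). Slc25a39, a mitochondrial carrier 0.430 kb from Rundc3a, held 112 CPM in WT and 94.4 CPM in KO libraries (-0.24, adjusted p = 0.146). Mtmr9, next to Xkr6, held 24.6 and 26.0 CPM (0.08, adjusted p = 0.732). Sergef, next to Kcnc1, held 7.38 and 10.03 CPM (0.44, adjusted p = 0.0638, edgeR), and its groups did not overlap. By DESeq2 the adjusted p of Sergef was 0.0464, but its log2 fold change of 0.43 lay below the threshold for a call. On the other side of Rundc3a, Slc4a1, the anion exchanger of red cells, fell from 9.71, 2.17 and 7.47 CPM to 0.218, 0.162 and 0.713 CPM (log2 fold change -4.14, SE 0.71, adjusted p = 0.0279), as did Grn, a growth factor precursor of macrophages (-1.08, SE 0.24, adjusted p = 0.0406). Slc4a1 and Grn fell together with the erythroid and macrophage markers given above. The other neighbours called lower were Ces2g, Plbd1 and Art4 near BC049715, with log2 fold changes of -0.98 and -1.48 for the latter pair (adjusted p = 0.0476 and 0.0412), and Fam167a near Xkr6 (-1.62, adjusted p = 0.0491).

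The genes whose profile over the 6 libraries was most like the mean profile of the 10 were Smco3, Scn2a1, Spink13, Ssxb10 and Olfr1342, ranked by the root mean square difference of log2 levels (0.1 CPM added) relative to the WT mean, which ran from 0.258 to 0.340 over the 6 libraries. They encode, as far as known, a small membrane protein, a voltage-gated sodium channel of neurons, a protease inhibitor of the epididymis, a member of the SSX family and an odorant receptor. All 5 had few reads and passed the filter on low counts only through the KO libraries. At such levels the 0.1 CPM added lowers the log2 differences, so the ranking depends on that amount. The fitted log2 fold changes of all 5 exceeded the median of the 10 genes, 2.61. Those of all but Smco3 also exceeded the highest of the 10, 3.27. Likeness to the 10 genes can therefore not be judged from this ranking. Scn2a1 and Ssxb10 had 0 counts in every WT library and 12, 12 and 26, and 20, 21 and 24 counts, respectively, in KO libraries, Spink13 had 0, 4 and 2 against 21, 36 and 23 counts, and Olfr1342 had 0, 2 and 0 against 12, 22 and 33 counts.

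In NK92MI cells, counterparts of the 10 genes were examined after inhibition rather than loss of the enzyme, with EHMT2 itself at 57.1, 61.6 and 54.3 CPM in DMSO and 40.4, 39.3 and 35.8 CPM in BIX-01294 libraries (log2 fold change -0.58, SE 0.08, adjusted p = 0.000101). The human table listed 7 of the 12 counterparts considered, and 4 had enough counts to be tested. Of these 0 were called higher by edgeR or DESeq2, with 1 at an unadjusted p under 0.05 by edgeR and 0 by DESeq2, and 1 was called lower, beside 7.57% and 7.34% of the 12727 human genes tested. RUNDC3A held 1.34, 0.643 and 1.07 CPM in DMSO and 1.46, 1.76 and 1.83 CPM in BIX-01294 libraries. The groups, at 11 to 23 counts in DMSO and 24 to 31 in BIX-01294 libraries, did not overlap. The difference did not pass the threshold (log2 fold change 0.73, SE 0.33, adjusted p = 0.102, edgeR). How many of all human genes have groups apart was not computed. CES2, the only human member of its subfamily and thus counterpart of the whole mouse Ces2 cluster, fell from 26.2, 27.6 and 24.0 CPM to 13.6, 14.3 and 13.6 CPM (log2 fold change -0.91, SE 0.10, adjusted p = 1.38e-05), and was called lower whichever single library was left out.

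C12orf60, taken as the counterpart of BC049715 because it too starts between WBP11 and SMCO3 in the annotation, held 2.33, 1.52 and 2.66 CPM in DMSO and 1.70, 1.47 and 1.95 CPM in BIX-01294 libraries (log2 fold change -0.34, SE 0.28, adjusted p = 0.370). FNTB held 2.10, 1.75 and 1.48 CPM against 1.52, 0.882 and 2.01 CPM (-0.27, SE 0.33, adjusted p = 0.552). KCNC1 with 3 to 14 counts, AKR1C3 with 0 to 7 and AKR1C4 with 0 to 4 counts per library were too low for a test, and their groups overlapped. KCNJ8, SLC27A6, AKR1C1, AKR1C2 and XKR6 were not listed under these symbols among the human genes, and no counterpart was considered for Lcn4.

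**Figure D4:**
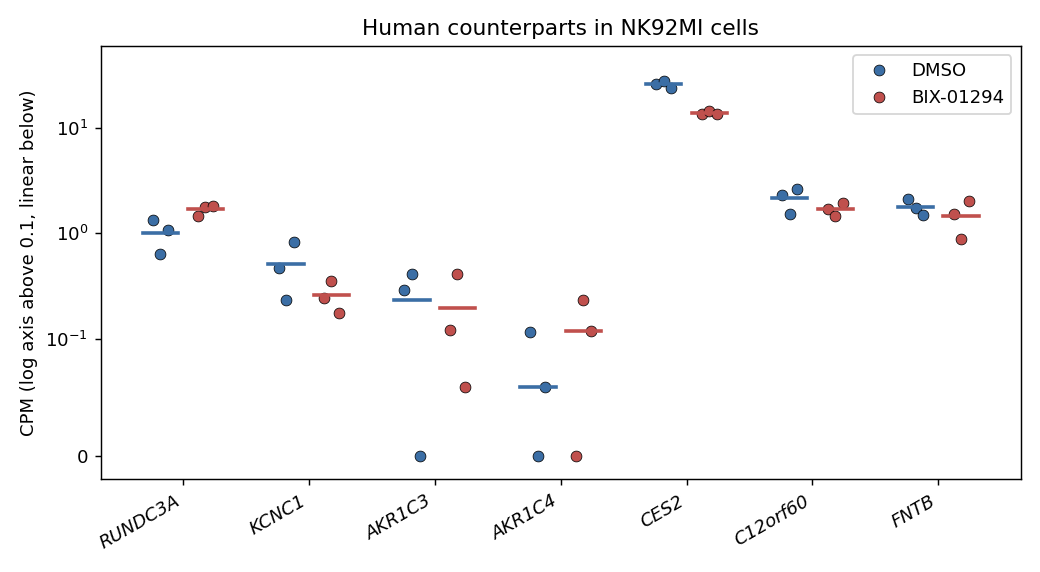
CPM of the 7 listed human counterparts in NK92MI cells with the solvent or the inhibitor (log axis above 0.1 CPM and linear below), with 1 point per library and bars at the mean of 3. The groups do not overlap for CES2 (24.0 to 27.6 CPM in DMSO, 13.6 to 14.3 CPM in BIX-01294) and RUNDC3A (0.643 to 1.34 and 1.46 to 1.83 CPM). The share of all human genes with groups apart was not computed.

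A promoter of CES2 is shown since CES2 was the one counterpart that changed. RefSeq places its first start so that the window from 250 bases before to 50 after it is chr16:66934221-66934520 (GRCh38.p14, plus strand), in which each CG, the site of DNA methylation, is in capitals.
CES2: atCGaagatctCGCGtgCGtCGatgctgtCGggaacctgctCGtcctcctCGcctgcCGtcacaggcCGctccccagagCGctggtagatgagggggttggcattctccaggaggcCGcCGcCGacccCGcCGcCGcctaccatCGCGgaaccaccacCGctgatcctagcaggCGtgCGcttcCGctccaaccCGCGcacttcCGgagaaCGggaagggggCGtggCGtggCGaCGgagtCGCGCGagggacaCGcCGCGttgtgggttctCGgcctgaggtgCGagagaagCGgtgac
The window holds 40 CG pairs, more than 92.4% of the 35116 promoter windows of that length, whose median is 14, and 69.0% G and C. Of 6 motifs searched on both strands, namely the TATA box TATAAA, the CCAAT box, the GC box GGGCGG, the Runx core TGTGGT, the Ets core CCGGAA and the T-box core GTGTGA, it holds only the Ets core, once, found in 17.2% of all windows. A second CES2 start has the window chr16:66935266-66935565, with 14 CG pairs and 63.3% G and C, in which the Runx core occurs once, as in 13.1% of all windows, and the Ets core does not. The counterparts differed widely in this respect. The FNTB window held 23 CG pairs, the KCNJ8 window 16, and the windows of KCNC1 44 and 24, whereas those of the AKR1C genes held between 0 and 3.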

How the data were processed

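RNA-seq counts were analysed for splenic NK cells (3 WT, 3 KO) and for NK92MI cells (3 BIX-01294, 3 DMSO). The authors trimmed reads with fastp 0.23.4, aligned them with STAR 2.7.11b, allowing 2 mismatches, to mm10 or hg38 and used HTSeq 2.0.3 for counting, and the deposited values are raw counts per symbol. The annotation release and the strand setting are not given in the sources used here. The human control columns could not be matched to single DMSO samples and were used as a group. In mouse libraries 86.3% to 89.8% of the counts from 1 to 20 were even numbers, in human libraries 44.3% to 45.9%, so mouse counts may not be independent reads, and the cause was not tested.

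The 10 genes and all lists were chosen with earlier results of these data known. Each species was fitted over all genes with edgeR 4.0.16 in R 4.3.3 (TMM, filterByExpr, quasi-likelihood test, Benjamini-Hochberg adjustment), and a call required an adjusted p below 0.05 with an absolute log2 difference above 0.5. The study's threshold of 0.01 and DESeq2 1.42.0 were alternatives, beside other scalings and filters, the replicate number as a block and each library left out in turn. CPM use TMM library sizes. Named were all 10 genes, called family and neighbouring genes, otherwise the most abundant of a family, selected partners and paralogs chosen after their values were seen (Rundc3b, Abcc8, Abcc9, Pggt1b, Xkr8 and the nearest neighbours), all human counterparts and the 5 genes of most similar profile. Positions and exon lengths come from GENCODE M21 and v44, which matched 21386 of 22021 mouse and 17891 of 18304 human symbols, and human promoters from RefSeq. Mouse promoters and protein sequences were not used here. The fits were tested on simulated data.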

Additional observations from a re-analysis of the deposited data

How the results depend on the processing

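The 10 genes were chosen for large rises in these same libraries, so a kept direction follows from that choice and the values are a description. Their log2 fold changes kept their sign under every alternative run. Their median of 2.61 lay between 2.46 and 2.75 with single libraries left out and was 1.83 when libraries were scaled to the 12 pan-NK genes, which shifted the median of all genes by -0.76 and left Fntb at 0.30 and Kcnj8 at 0.55. With that scaling the called family genes were 0 higher and 43 lower and the neighbours 1 higher and 34 lower. DESeq2 called 18 family genes lower, a mean CPM of at least 1 left 1 neighbour called higher, and at an adjusted p under 0.01 edgeR called 0 family genes and 0 neighbours in each direction, since it called 0 of all mouse genes there, whereas DESeq2 called 396 higher and 1099 lower. With single libraries left out, called family genes ranged from 0 to 4 higher and from 0 to 19 lower, and neighbours from 0 to 4 higher and from 0 to 10 lower. The human counterparts gave 0 higher and 1 lower under every alternative run.

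With the replicate number as a block, 12 neighbours were called lower, and over all mouse genes 573 were called higher and 1572 lower, against 372 and 882. Same-numbered KO and WT libraries correlated at 0.33, 0.45 and -0.20 in their deviations from the group means, and KO replicate 3 correlated best with WT replicate 2, at 0.24, so the data do not show that the numbers pair the libraries. No paired analysis was possible for the human libraries because the control columns carry no replicate numbers linked to the samples.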
